A study of Homo sapiens with 2 samples.

Results

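The 10 genes described here, ATF4, DDIT3, TRIB3, CHAC1, ATF3, PPP1R15A, DDIT4, SESN2, NUPR1 and CEBPB, are the transcription factor ATF4, its partner or target factors, and well-known effector genes of the same stress response. They were chosen by name, with earlier results of these data known, as were the gene lists below. No count of lower genes given here is thus independent support. All 10 were found by symbol among the 25702 genes of the count files. RNA was sequenced from K562, an established human erythroleukemia line with the BCR-ABL1 fusion, grown as asynchronous cells in RPMI with serum. One library came from cells given 1 µM cabozantinib (XL184), which blocks receptor tyrosine kinases such as MET and AXL, for 48 h, and the other from cells given the DMSO vehicle for 48 h. With 1 library per group the conditions could not be tested and nothing here is backed by replicates, and every interval reflects counting error alone.

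The integrated stress response begins when a kinase that senses unfolded protein, amino acid shortage, heme shortage or viral RNA phosphorylates the translation factor eIF2. Most protein synthesis then slows, while the ATF4 messenger is translated more, because short reading frames ahead of its coding sequence no longer hold ribosomes back. ATF4 protein switches on the gene of CHOP, which is named DDIT3, and with it genes for amino acid supply, for feedback and for cell death. In erythroid cells the heme-sensing kinase of this pathway matches globin synthesis to heme supply. Levels of messenger RNA, measured here, do not show how much of a messenger is translated.

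The cabozantinib library held 25505289 counts over 16243 genes and the DMSO library 25025243 counts over 16631 genes. Levels are in CPM, counts for each 1e6 counts after TMM scaling, and a gene counted as measured if either library reached 1 CPM, which 12536 genes did. All 17 markers of the K562 erythroid state, BCR and ABL1 of the fusion included, were measured. They summed to 44366 CPM with cabozantinib and 15784 CPM in DMSO. Globin genes held most of both sums, such as HBG2 with 12751 CPM with cabozantinib and 5708 CPM in DMSO. Log2 ratios of the 17 ran from 0.27 for ABL1 to 2.49 for HBZ, with GATA1 at 0.39. Markers of other blood and stromal cells were low, as 6 granulocyte and monocyte genes (1 measured) summed to 9.24 CPM with cabozantinib and 18.4 CPM in DMSO. The sums for 5 lymphocyte genes (2 measured) were 3.15 CPM with cabozantinib and 11.1 CPM in DMSO, and those for 4 fibroblast genes (2 measured) were 3.35 CPM with cabozantinib and 6.33 CPM in DMSO. MPO, ELANE and MS4A1, which define granulocytes and B cells, had 0 counts in both libraries. Among 6 megakaryocyte markers 3 were measured, and the 6 summed to 122.6 CPM with cabozantinib and 26.1 CPM in DMSO. TUBB1 held 114.6 CPM of the sum with cabozantinib and 11.6 CPM in DMSO. ITGB3 had 1.74 CPM with cabozantinib and 0.582 CPM in DMSO, whereas ITGA2B went the other way, with 6.34 CPM with cabozantinib and 13.9 CPM in DMSO, and PF4 and GP9 had 0 counts in both. The epithelial surface gene EPCAM had 86.1 CPM with cabozantinib and 70.4 CPM in DMSO, while KRT5 had 0 counts in both. The part of the erythroid shift in the values below was not tested, and in bulk RNA fewer cells with an active response and less of its RNA per cell cannot be told apart.

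All 10 genes had a log2 ratio of cabozantinib over DMSO below 0. A gene was called lower or higher at a difference of 1.5-fold or more (a log2 size of 0.58), provided that no change lay outside the 95% counting interval of its ratio (Clopper-Pearson, exact). By that rule 9 of the 10 were lower and 0 were higher, against 12.3% of all measured genes called lower and 8.15% called higher. At 2-fold 8 of the 10 were lower, against 5.76% of all measured genes. For all 9 even the weaker end of the interval lay beyond 1.5-fold. The median log2 ratio of the 10 genes was -1.93, and that of all measured genes was 0.01. All 10 were measured, but NUPR1 passed the filter only through its level in DMSO, so a low value with cabozantinib could not have removed it. ATF4 itself was the 1 gene inside 1.5-fold.

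**Figure D1:**
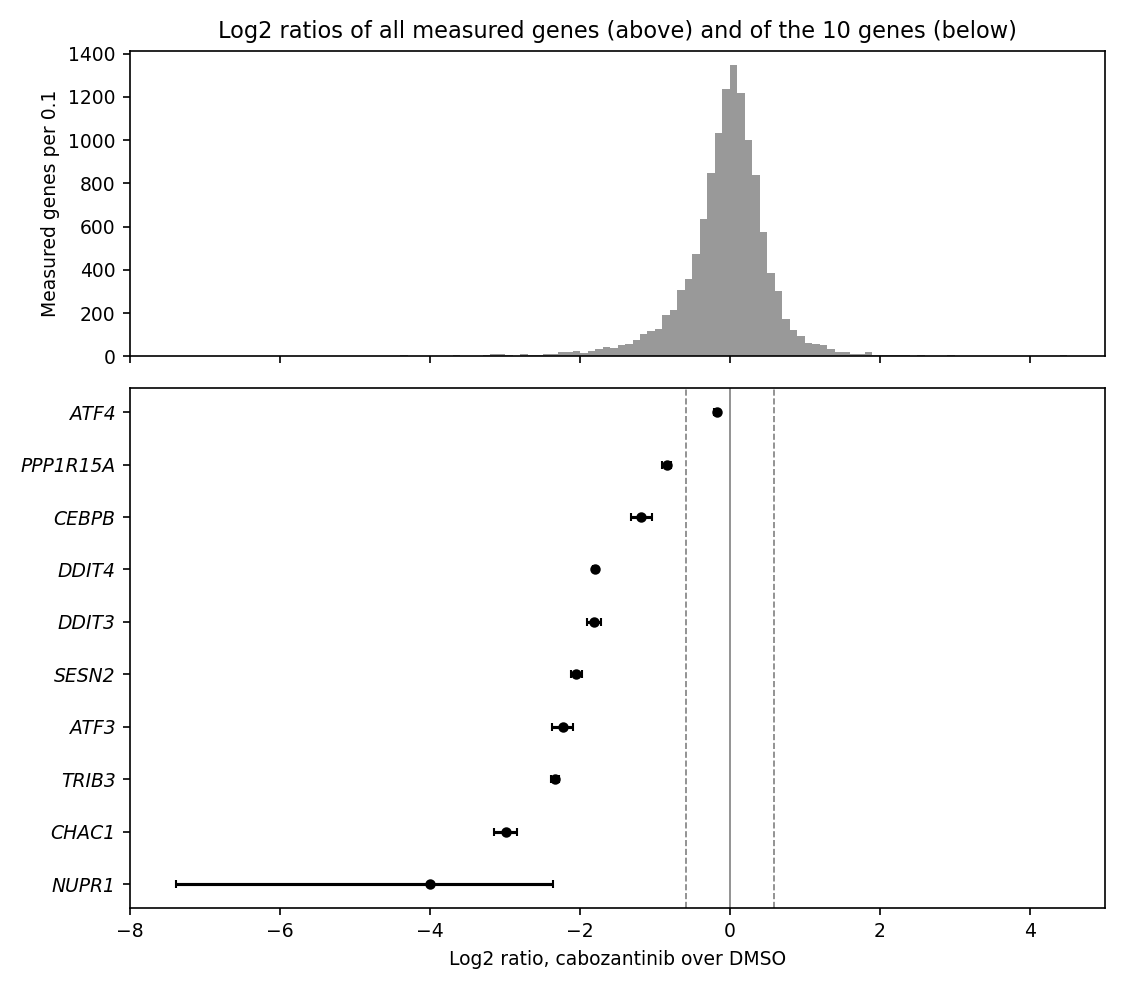
The upper panel counts the measured genes in log2 ratio steps of 0.1 (values past either end are drawn in the end step), and the lower panel shows the log2 ratio, cabozantinib over DMSO, of each of the 10 genes with its 95% counting interval (bars) on the same axis, dashed lines marking 1.5-fold. The bulk of genes sits near 0, ATF4 lies at -0.18 inside the dashed lines, and the other 9 genes lie between -0.84 and -4.00, left of them.

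Together the 10 genes took 0.153% of all counts with cabozantinib (exact binomial interval 0.152% to 0.155%) and 0.434% in DMSO (0.432% to 0.437%). DDIT4 alone took 0.0554% with cabozantinib and 0.205% in DMSO. The other 9 genes took 0.0977% with cabozantinib and 0.229% in DMSO. The share was thus lower with cabozantinib also without DDIT4, the most abundant of the 10 in both libraries.

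The promoters of the 10 genes were searched for 8-letter motifs of the factors concerned, on both strands. The windows were those of RefSeq on GRCh38.p14, which run from 250 bases before to 50 after each annotated start, and 9 of the 10 genes had 1 or more (15 windows in all). The C/EBP-ATF response element TGATGNAA is the composite site that ATF4 binds with a C/EBP partner. It occurred in 3.62% of all 35116 windows and in 2 of the 15 member windows, those of CHAC1 and of 1 start of ATF3. The cyclic AMP response element TGACGTCA, bound by ATF and CREB dimers, occurred in 1.85% of all windows and in 1 of the 15, that of PPP1R15A. The stretches holding these matches follow, 5′ to 3′ on the strand of the gene, with the matched letters in capitals. For ATF3 the window is that of the more distant of its RefSeq starts. A match is a description of the letters only, and no match elsewhere says only that these letters are outside the window searched.
CHAC1, chr15:40953221-40953340, plus strand, the element read on the opposite strand: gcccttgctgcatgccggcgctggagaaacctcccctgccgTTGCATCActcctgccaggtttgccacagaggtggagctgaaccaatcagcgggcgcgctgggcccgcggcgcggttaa
ATF3, chr1:212565160-212565279, plus strand: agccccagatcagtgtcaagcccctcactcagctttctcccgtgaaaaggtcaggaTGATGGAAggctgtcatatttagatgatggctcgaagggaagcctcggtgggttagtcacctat
PPP1R15A, chr19:48872301-48872420, plus strand: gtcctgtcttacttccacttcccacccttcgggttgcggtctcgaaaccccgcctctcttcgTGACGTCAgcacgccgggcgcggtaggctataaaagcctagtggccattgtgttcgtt
The capitals begin 209 bases before the annotated start in CHAC1, 191 in ATF3 and 58 in PPP1R15A.

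Among the transcription factors, the messenger of ATF4 was nearly level between the libraries. ATF4 (Entrez 468) lies on chromosome 22 at 39916569 to 39918691. This and the gene positions that follow come from the deposited files, on hg19. It had 13893 counts (560.9 CPM) with cabozantinib and 16327 counts (633.6 CPM) in DMSO, a log2 ratio of -0.18 (95% interval -0.21 to -0.14). The interval excluded no change, but the difference was 1.13-fold, and 32.8% of measured genes had a lower ratio. DDIT3 (Entrez 1649, chromosome 12, 57910371 to 57914300) encodes CHOP, a bZIP factor that pairs with C/EBP proteins and is linked to cell death in prolonged stress. It had 1116 counts (45.1 CPM) with cabozantinib and 4072 counts (158.0 CPM) in DMSO, 3.51-fold lower (3.28 to 3.75). The messenger of CHOP thus stood at 28.5% of its DMSO level where that of its activator ATF4 stood at 88.5%.

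DDIT3 is the 1 gene of the 10 whose exons overlap another gene in the deposited annotation. On the opposite strand MARS (MARS1), methionyl-tRNA synthetase, shares 63 bases with it, 5.35% of the exon length of DDIT3. The libraries were strand-specific per the labels' protocols, but whether counting used strand is not stated there, so the reads of that stretch are uncertain. MARS had 519.1 CPM with cabozantinib and 851.2 CPM in DMSO, 1.64-fold lower. The microRNA gene MIR616, which lies between exons of DDIT3 on the same strand, had 3 counts with cabozantinib and 16 in DMSO, a log2 ratio of -2.18 (-4.78 to -0.55) below the level filter.

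ATF3 (Entrez 467, chromosome 1, 212738697 to 212794117), a stress-induced repressor and activator of the same bZIP class, had 494 counts (19.9 CPM) with cabozantinib and 2417 counts (93.8 CPM) in DMSO. It was 4.7-fold lower (4.27 to 5.19), with 0.949% of measured genes lower by ratio. CEBPB (Entrez 1051, chromosome 20, 48807376 to 48809212), a single-exon gene for a C/EBP factor that pairs with ATF4 and with CHOP, had 572 counts (23.1 CPM) with cabozantinib and 1350 counts (52.4 CPM) in DMSO. CEBPB was 2.27-fold lower (2.06 to 2.51), a smaller difference than that of ATF3 or DDIT3. NUPR1 (Entrez 26471, chromosome 16, 28548662 to 28550495), a small chromatin-associated protein of the stress response, was close to the detection floor. It had 2 counts (0.081 CPM) with cabozantinib and 41 counts (1.59 CPM) in DMSO, a log2 ratio of -4.00 whose interval ran from -7.39 to -2.36. Its 16.0-fold size is thus known only within 5.12-fold and 168-fold.

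Both feedback genes were lower, by different sizes. PPP1R15A (Entrez 23645, chromosome 19, 49375649 to 49379319) encodes GADD34, the stress-induced subunit that brings protein phosphatase 1 to eIF2 and ends the response. It had 3761 counts (151.8 CPM) with cabozantinib and 7022 counts (272.5 CPM) in DMSO, 1.79-fold lower (1.72 to 1.87), the smallest difference among the 9 lower genes. TRIB3 (Entrez 57761, chromosome 20, 361308 to 378203), a pseudokinase that binds ATF4, CHOP and AKT, had 2863 counts (115.6 CPM) with cabozantinib and 15001 counts (582.2 CPM) in DMSO. The TRIB3 messenger was 5.04-fold lower (4.84 to 5.24), which is 19.9% of its DMSO level.

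The effectors that act on glutathione and on growth signalling were all lower by more than 3-fold. CHAC1 (Entrez 79094, chromosome 15, 41245636 to 41248717), an enzyme that breaks down glutathione, had 408 counts (16.5 CPM) with cabozantinib and 3382 counts (131.2 CPM) in DMSO. At 7.96-fold lower (7.19 to 8.85) it had the largest difference among the 9 genes with at least 100 counts in each library, and 56 of the 12536 measured genes had a lower ratio. DDIT4 (Entrez 54541, chromosome 10, 74033677 to 74035797) encodes REDD1, which restrains the growth kinase complex mTORC1 through TSC1 and TSC2. DDIT4 had 14122 counts (570.1 CPM) with cabozantinib and 51292 counts (1991 CPM) in DMSO, 3.49-fold lower (3.43 to 3.56). SESN2 (Entrez 83667, chromosome 1, 28586006 to 28609002) encodes Sestrin2, a leucine sensor that also restrains mTORC1. It had 1815 counts (73.3 CPM) with cabozantinib and 7814 counts (303.2 CPM) in DMSO, 4.14-fold lower (3.93 to 4.36). In absolute terms DDIT4 differed most of the 10, by -1420 CPM, followed by TRIB3 at -467 CPM and SESN2 at -230.0 CPM.

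Some neighbours in the order of change could not be separated. The ratios of DDIT3 and DDIT4 differed by a factor of 0.995 (exact conditional interval 0.928 to 1.07), and those of TRIB3 and ATF3 by a factor of 0.934 (0.840 to 1.04). NUPR1 and CHAC1 were also inside counting error of each other, at a factor of 0.404 (0.0472 to 1.57). The remaining 6 neighbouring pairs differed beyond counting error, from a factor of 0.629 for PPP1R15A against ATF4 (0.601 to 0.659) to one of 0.880 for ATF3 against SESN2 (0.787 to 0.983). No replicate spread is known for any of these pairs.

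Levels between genes were compared per exon length, in RPKM (CPM for each kilobase). DDIT4 was the highest of the 10 with 325.4 RPKM with cabozantinib and 1136 RPKM in DMSO, which was rank 167 of the measured genes with cabozantinib and rank 45 in DMSO. ATF4 came next with 277.4 RPKM with cabozantinib and 313.4 RPKM in DMSO. With cabozantinib the order then ran PPP1R15A, TRIB3, DDIT3, SESN2, CEBPB, CHAC1, ATF3 and NUPR1, and in DMSO it ran TRIB3, DDIT3, PPP1R15A, SESN2, CHAC1, ATF3, CEBPB and NUPR1. PPP1R15A and CEBPB each stood 2 places higher in the order with cabozantinib than in DMSO, and TRIB3, DDIT3, CHAC1 and ATF3 each stood 1 place lower. All neighbours in each order differed beyond counting error except SESN2 and CHAC1 in DMSO, at 87.0 and 84.1 RPKM. CHAC1 was at rank 6258 of the measured genes with cabozantinib and rank 977 in DMSO.

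**Figure D2:**
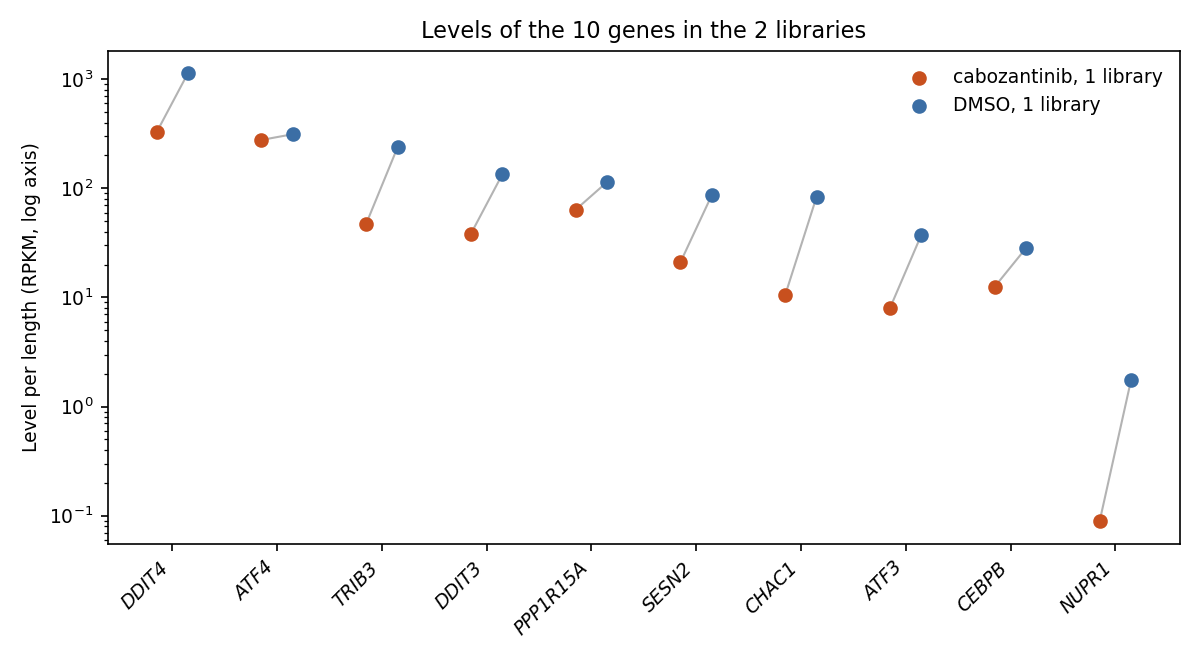
Each gene's level per exon length (RPKM, log axis) is shown with cabozantinib (left point) and in DMSO (right point), 1 library each, with genes in falling order of their DMSO level. The points of ATF4 lie almost level, at 277.4 RPKM with cabozantinib and 313.4 RPKM in DMSO, while those of DDIT4 lie at 325.4 RPKM with cabozantinib and 1136 RPKM in DMSO.

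Set against the ATF4 messenger, a comparison that no library scaling can move, every other member was lower. DDIT4 stood at 117% of ATF4 per length with cabozantinib and at 363% in DMSO. TRIB3 stood at 17.0% of ATF4 with cabozantinib and at 75.8% in DMSO, and DDIT3 at 13.8% with cabozantinib and 42.8% in DMSO. The ratio of CHAC1 to ATF4 was 7.05-fold lower with cabozantinib (exact conditional interval 6.35 to 7.85), and that of TRIB3 to ATF4 4.46-fold lower (4.26 to 4.67). The smallest such difference was that of PPP1R15A, 1.59-fold (1.52 to 1.66).

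Several of the 10 genes have a close relative in the genome, and none of the measured relatives of the effector and feedback genes was called lower. Of all measured genes 12.3% were called lower, so with so few relatives such a count says little by itself. PPP1R15B, the constitutive partner of the same phosphatase, had a log2 ratio of 0.15, with 4251 counts with cabozantinib and 3974 in DMSO. PPP1R15A was 1.96 times as high as PPP1R15B in RPKM with cabozantinib and 3.91 times in DMSO. CHAC2, the relative of CHAC1 with slow constitutive activity, was 1.60-fold higher (1.38 to 1.86). CHAC1 was thus 0.708 times as high as CHAC2 in RPKM with cabozantinib and 9.03 times in DMSO, and the ratio of the pair was 12.7-fold lower with cabozantinib (10.6 to 15.3).

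SESN1, a sestrin best known as a p53 target, was 1.51-fold higher (1.32 to 1.72) but inside 1.5-fold under scaling by total counts or upper quartile. SESN3, a sestrin induced by FOXO factors, had 77 counts with cabozantinib and 55 in DMSO, a log2 ratio of 0.54 inside 1.5-fold. SESN2 stood at 2.56 times SESN1 in RPKM with cabozantinib and at 16.0 times in DMSO. Of the other Tribbles genes, TRIB1 had a log2 ratio of 0.46, TRIB2 one of 0.57 and STK40, a more distant member, one of -0.35, all inside 1.5-fold. TRIB3 stood at 2.65 times TRIB2 with cabozantinib and at 19.8 times in DMSO, and at 0.882 times STK40 with cabozantinib and 3.48 times in DMSO. DDIT4L and NUPR2, the nearest relatives of DDIT4 and NUPR1, had 0 counts with cabozantinib and in DMSO, which leaves room for up to 3 counts per library.

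All 4 relatives called lower were relatives of the transcription factors. ATF5, the closest relative of ATF4 and also controlled through short upstream reading frames, was 2.15-fold lower (2.08 to 2.23), with 198.8 CPM with cabozantinib and 427.8 CPM in DMSO. ATF4 stood at 3.31 times ATF5 in RPKM with cabozantinib and 1.74 times in DMSO. CEBPG, a C/EBP protein without an activation domain that pairs with ATF4, was 2.01-fold lower (1.91 to 2.11), and the ratio of CEBPB to CEBPG was 1.13-fold lower with cabozantinib (1.01 to 1.26). CEBPD, also lower, had 42 counts with cabozantinib and 88 in DMSO. CEBPA had 13 counts with cabozantinib and 27 in DMSO, with an interval that held no change here and excluded it under the other scalings, and CEBPE had 0 counts in both. JDP2, a repressor related to ATF3, was 4.29-fold lower (3.19 to 5.93), and the ratio of ATF3 to JDP2 could not be told from unchanged at 1.09-fold (0.781 to 1.5). Over all 15 relatives, 12 were measured, of which 4 were lower and 2 higher (4 and 0 at 2-fold). Of all measured genes 12.3% were lower and 8.15% higher, and 5.76% were lower at 2-fold. The median log2 ratio of the 12 relatives was -0.10.

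**Figure D3:**
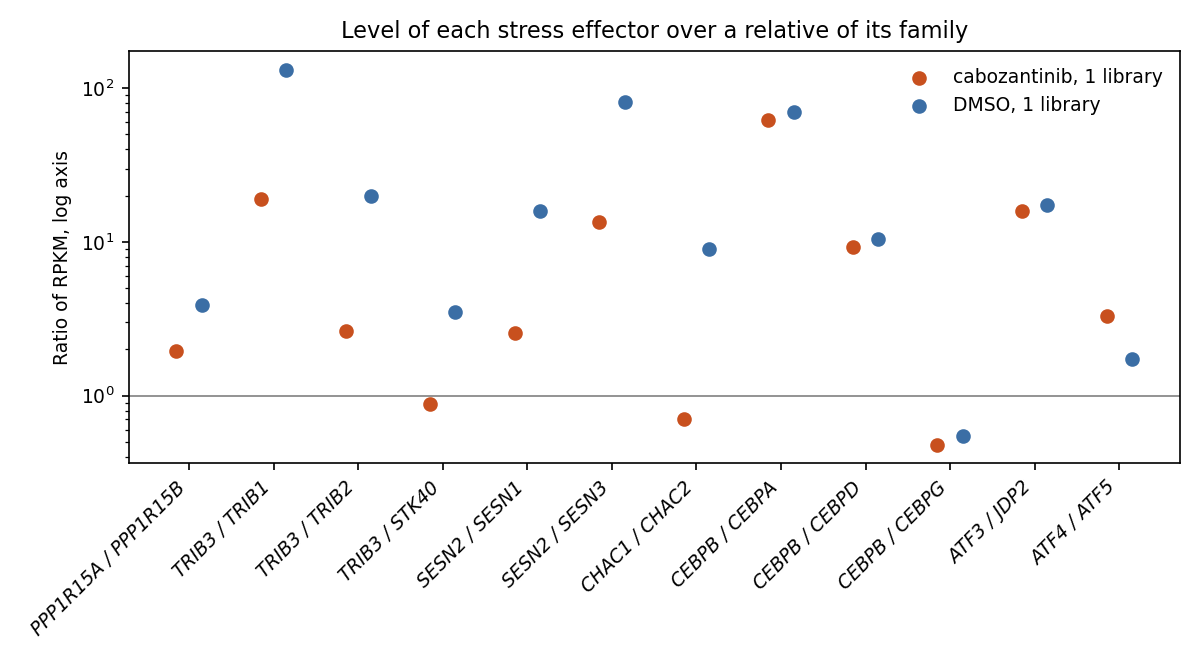
The level of a stress effector divided by that of a relative (ratio of RPKM, log axis) is shown with cabozantinib (left point) and in DMSO (right point), 1 library each, the line marking equal levels. Pairs led by PPP1R15A, TRIB3, SESN2 and CHAC1 lie lower with cabozantinib, with CHAC1 over CHAC2 at 0.708 with cabozantinib and 9.03 in DMSO, whereas ATF4 over ATF5 lies higher, at 3.31 with cabozantinib and 1.74 in DMSO.

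Messengers of the machinery that starts the response were inside 1.5-fold. The 22 genes listed were those of the eIF2 kinases, eIF2, its exchange factor eIF2B and the phosphatase that resets it, with some related factors. Of the 22, 0 were lower and 0 higher, and their median log2 ratio was 0.02. The shares over all measured genes were 12.3% lower and 8.15% higher. The kinases were EIF2AK1, the heme sensor, at 0.40, EIF2AK2, the RNA sensor, at 0.44, EIF2AK3, the unfolded protein sensor PERK, at 0.03, and EIF2AK4, the amino acid sensor GCN2, at -0.24 in log2 ratio. IMPACT, a restrainer of GCN2, had the lowest ratio of that list at -0.54, and it passed 1.5-fold lower under scaling by total counts. The list for mTORC1 and its control, the pathway on which DDIT4 and SESN2 act, had 31 measured genes among 34. Of these, 0 were lower and 0 higher against the same shares of all genes, with a median log2 ratio of 0.10. Their log2 ratios ran both ways, from -0.30 for RPTOR, a subunit of mTORC1, to 0.51 for RRAGB, a GTPase that recruits it. TSC1 and TSC2 had log2 ratios of 0.50 and 0.15. Phosphorylation of these proteins was not measured.

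Genes downstream of ATF4 were lower in larger numbers. Of 32 genes listed as ATF4 targets, most for amino acid synthesis, transport and tRNA charging and others such as VLDLR and the secreted glycoprotein STC2, 24 were lower and 0 higher, against 12.3% lower and 8.15% higher among all measured genes. At 2-fold 13 were lower, against 5.76% of all measured genes. The median log2 ratio of that list was -0.89. CTH, which makes cysteine from cystathionine, was 4.81-fold lower (4.51 to 5.13). VLDLR, a lipoprotein receptor induced in this response, had 8 counts (0.323 CPM) with cabozantinib and 81 counts (3.14 CPM) in DMSO, 9.22-fold lower (4.71 to 23.3), and like NUPR1 it was measured only through its DMSO level. The median of the 10 stress effectors was -1.93, and the difference between the medians was not tested.

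Of 14 genes that CHOP is linked to in cell death and damage, 12 were measured, 7 lower and 1 higher, with a median of -0.96. The shares over all measured genes were 12.3% lower and 8.15% higher, and 5.76% lower at 2-fold. At 2-fold 2 genes of the list were lower and 0 higher. TNFRSF10B, the death receptor DR5, was 7.47-fold lower (6.81 to 8.23), and ERO1B, an oxidase of the endoplasmic reticulum, 2.14-fold lower (1.86 to 2.47). BCL2L11, which encodes the death protein BIM and is also a target of FOXO3, was 1.57-fold higher (1.41 to 1.76) but inside 1.5-fold under scaling by total counts. The survival gene BCL2, which CHOP is known to repress, was among the lower genes, with 31 counts with cabozantinib and 64 in DMSO. The other arms of the unfolded protein response gave 11 lower and 0 higher of 26 genes, with a median of -0.45 and 4 lower at 2-fold. ERN1, which encodes the sensor IRE1, was 3.47-fold lower (3.0 to 4.03), and HSPA5, the chaperone BiP, 2.67-fold lower (2.62 to 2.73).

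Of 25 other bZIP genes (C/EBP, ATF, CREB, AP-1 and NRF factors, 6 of them also among the relatives), 22 were measured, 10 lower and 3 higher, with a median of -0.53. At 2-fold 6 of them were lower and 0 higher. For this list and the next, the shares over all measured genes were 12.3% lower and 8.15% higher, and 5.76% lower at 2-fold. BATF3, named after its values were seen, was among the lower genes but measured only through DMSO. It had 0.767 CPM with cabozantinib and 1.63 CPM in DMSO. JDP2 and JUN led the lower ones, JUN at 2.4-fold (2.12 to 2.72), while JUNB was 1.65-fold higher (1.51 to 1.80) and FOSL1 1.67-fold higher (1.43 to 1.96). Of 9 measured genes of mitochondrial stress signalling among 10, 4 were lower and 1 was higher (median -0.32, or -0.50 with no filter on low counts), and at 2-fold 2 were lower and 0 higher. GDF15, a secreted stress hormone, was 4.18-fold lower (3.90 to 4.48), ATF5 was also on this list, and the chaperonin gene HSPE1 was 1.62-fold higher (1.54 to 1.71).

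**Figure D4:**
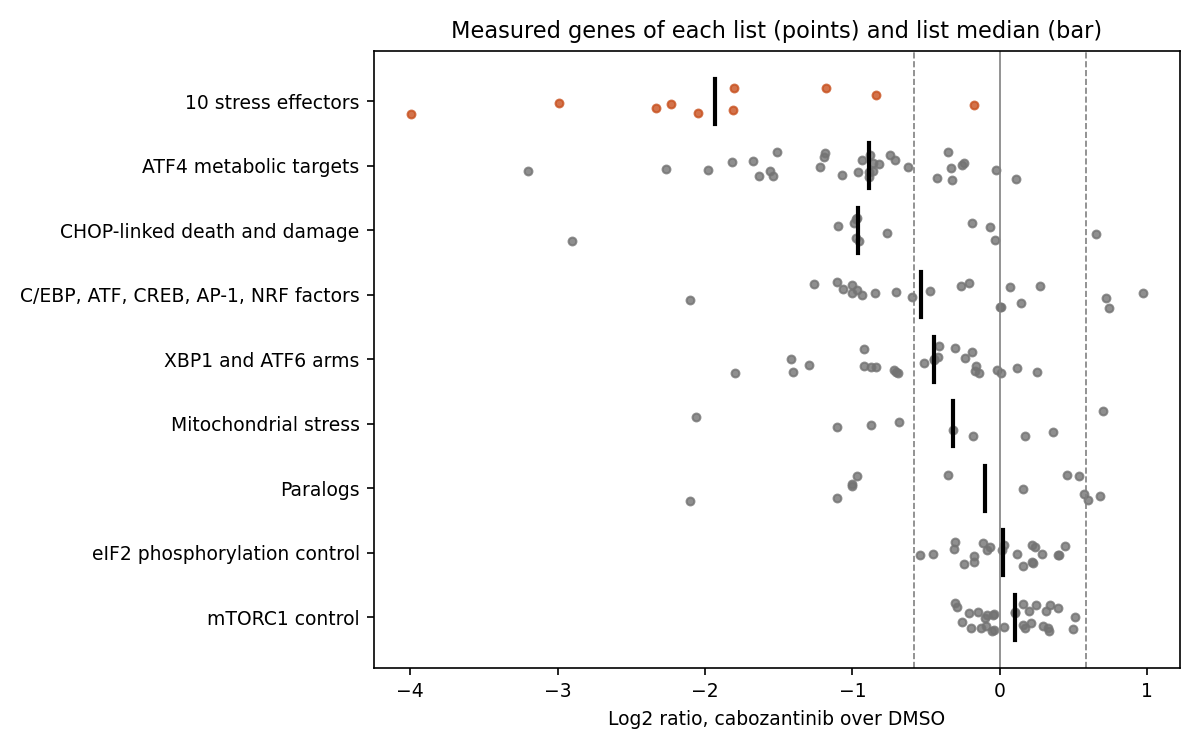
Each point is the log2 ratio, cabozantinib over DMSO, of 1 measured gene of a list, the black bar is the list's median and dashed lines mark 1.5-fold. The 10 stress effectors have a median of -1.93 and the ATF4 metabolic targets one of -0.89, whereas the points of the eIF2 and mTORC1 lists lie inside the dashed lines around medians of 0.02 and 0.10.

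The exon length of the 10 genes had a median of 1930 bases (912 to 3485) against 2832 bases over all measured genes, and they had a median of 3 exons (1 to 10) against 9. SESN2, with 3485 exon bases and 10 exons, lay above both medians of all genes. The authors' deposited table gave 8 of the 10 genes a posterior probability of differential expression of at least 0.95 with a lower level under cabozantinib, against 3.27% of all genes in that table. PPP1R15A had 0.81 in the authors' deposited table, short of that limit, with a shrunken fold of 0.554. ATF4 had 0.00215 there, with a shrunken fold of 0.880 in the authors' deposited table and a posterior probability of equal expression of 0.998.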

How the data were processed

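RNA from 2 K562 libraries, grouped by their treatment label, was analysed. The deposited counts are whole-number counts per Entrez gene, aligned with Rsubread to hg19 per the file headers. The sources used here give neither the counter's version nor its strand setting. The authors' deposited table holds posterior probabilities, a score between 0 and 1, and fold ratios, whose direction was read from the labelled counts. In it, 4 per-library columns without a sample label were left unused.

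Counts were scaled with TMM (edgeR 4.0.16, R 4.3.3), and log2 ratios used a pseudocount of 0.5. Each ratio has an exact 95% interval from the 2 counts, which covers counting error only. No p-value was computed. Ratios between genes have exact conditional intervals. The steps were tested on simulated counts that held counting error only, so that test says nothing about spread between cultures. DESeq2 1.42.0 size factors, Python 3.11.15 and scipy 1.17.1 served the alternatives and intervals. The members, the 8 lists (178 entries, all matched by symbol or alias) and the tests were chosen with earlier results of these data known. Named are all members, their relatives and overlapping genes, and up to 2 list genes each way by the interval bound nearest no change. Further list genes (the eIF2 kinases, IMPACT, TSC1, TSC2, RPTOR, RRAGB, STC2 and BCL2) were chosen after their values were seen.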

Additional observations from a re-analysis of the deposited data

How the results depend on the processing

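The count of 9 lower and 0 higher genes among the 10 held under DESeq2 size factors, total counts, upper quartile scaling and a pseudocount of 1. With no filter it could not change, because all 10 were already measured. A filter of 5 CPM left out NUPR1 and gave 8, and a 2-fold limit also gave 8. Of 79 alternative values of the 10 log2 ratios, 74 stayed inside the counting interval of the reported value and none turned direction. The other 5 (ATF4, TRIB3, PPP1R15A, DDIT4 and SESN2) moved by 0.08 under scaling by total counts, which shifts every gene and puts the median of all genes at -0.07. Part of the 79 could not move, because neither dropping the filter nor raising it to 5 CPM alters a ratio. The authors' shrunken folds, also among the 79, come from the same 2 libraries. The median of the 10 genes, -1.93, was -1.81 with the 5 CPM filter and -1.42 as the ratio of summed CPM, which DDIT4 and ATF4 weigh most. The median of the relatives, -0.10, was 0.15 with the 5 CPM filter. Among the lists, higher relatives numbered 1 under total counts and upper quartile scaling and 0 at 2-fold, in place of 2. Under total counts the eIF2 list had 1 lower and the CHOP-linked list 0 higher. That scaling also gave 5 lower relatives in place of 4 and 11 lower bZIP genes in place of 10. It gave 8 lower CHOP-linked genes in place of 7, and 12 lower genes of the unfolded protein arms in place of 11. The gene added to those arms was XBP1, named after its values were seen. Without a filter the mTORC1 list had 1 lower, DEPTOR at 2 counts with cabozantinib and 10 in DMSO. The mitochondrial stress list then had 5 lower in place of 4, with a median of -0.50 in place of -0.32. The added gene was FGF21, at 0 counts with cabozantinib and 14 in DMSO. DEPTOR and FGF21 were named after their values were seen. At 2-fold the lower genes numbered 6 for bZIP partners, 13 for ATF4 metabolic targets, 2 for CHOP-linked genes, 4 for the unfolded protein arms and 2 for mitochondrial stress, and each of these lists had 0 higher. Of all measured genes 5.76% were lower at 2-fold. No paired analysis was possible because each group holds 1 library. Depth limits NUPR1 most, and differences between cultures could not be measured.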
